A study of Mus musculus with 6 samples.

Results

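*Apobec2*, *Tspo2* and *Unc5cl* are 3 neighbouring protein-coding genes of mouse chromosome 17 that were low in control uteri and high in *Gp130* ecKO uteri, and *Nfya* and *Oard1* are the 2 protein-coding genes that follow them on one side. These 5 adjacent protein-coding genes were taken from the 56748 genes of the deposited tables. *Apobec2*, *Tspo2* and *Unc5cl* were chosen from the very contrast described here, so their fold changes are given as a description without a test. *Nfya* and *Oard1* were taken for their position, and the question asked of them is whether they changed with their neighbours.

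The RNA came from whole uteri of females over 8 weeks old, labelled C57BL/6 (C57BL/6J in the methods of the study), at 1600 h on day 4 of pregnancy, after mating with a fertile wildtype male. The 3 uteri labelled *Gp130* ecKO came from females that were Ltf-iCre/+; Gp130 flox/flox, in which iCre, a recombinase driven from the lactoferrin locus, deletes Gp130 in the uterine epithelium. The study adds that some immune cells, macrophages and neutrophils among them, also express lactoferrin. The 3 control uteri are labelled WT, and the study describes its controls as Ltf+/+; Gp130 flox/flox or wildtype, so floxed alleles without iCre and plain wildtype females are not separated here. Gp130 is the shared signalling receptor chain of the interleukin 6 cytokine family, among them leukemia inhibitory factor, and its gene is listed as *Il6st*.

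*Apobec2* encodes a member of the AID/APOBEC family of cytidine deaminase-like proteins and is best known from skeletal and heart muscle. *Tspo2* encodes a paralog of the mitochondrial translocator protein TSPO that is best known from red blood cell precursors, where it has been linked to cholesterol handling. *Unc5cl* encodes a membrane-anchored protein related to the netrin receptors of the UNC5 family, carries a death domain, and is known to activate NF-kB and JNK signalling in mucosal epithelium. *Nfya* encodes the sequence-specific subunit of NF-Y, the factor that binds the CCAAT box of many promoters. *Oard1* encodes a macrodomain enzyme that removes ADP-ribose from proteins.

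In GRCm39 with the GENCODE M39 gene models, the 5 genes occupy 152.8 kb. *Nfya* (ENSMUSG00000023994) lies at chr17:48693913-48717126 on the minus strand. *Oard1* (ENSMUSG00000040771) lies at chr17:48715607-48724304 on the plus strand. Their canonical start sites are 10 bp apart and point away from each other. Their gene models overlap, but the transcripts that the files list for them do not. *Apobec2* (ENSMUSG00000040694) lies at chr17:48726257-48739958 on the minus strand, 1952 bp beyond the end of *Oard1*. *Tspo2* (ENSMUSG00000023995) lies at chr17:48754935-48758897 on the minus strand, 14976 bp beyond *Apobec2*. *Unc5cl* (ENSMUSG00000043592) lies at chr17:48761578-48846742 on the plus strand. The start sites of *Tspo2* and *Unc5cl* are 2681 bp apart and also point away from each other. No stretch of 75 bases, the length of the reads, in the GENCODE M39 transcripts of the 5 genes occurred in a transcript of another gene listed in the files, on either strand. A non-coding gene, *Gm49893*, lies at chr17:48724308-48728664 on the plus strand between *Oard1* and *Apobec2* and overlaps the end of *Apobec2*, and it had 0 to 3 counts per uterus.

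The 250 bases before the canonical start site of the 3 genes that were high in *Gp130* ecKO are shown here because these genes were high together, from the GRCm39 genome and in the direction of transcription. Capitals mark matches to 1 of 7 searched motifs. The *Apobec2* sequence is chr17:48739959-48740208 (minus strand), the *Tspo2* sequence chr17:48758898-48759147 (minus strand) and the *Unc5cl* sequence chr17:48761328-48761577 (plus strand).
Apobec2: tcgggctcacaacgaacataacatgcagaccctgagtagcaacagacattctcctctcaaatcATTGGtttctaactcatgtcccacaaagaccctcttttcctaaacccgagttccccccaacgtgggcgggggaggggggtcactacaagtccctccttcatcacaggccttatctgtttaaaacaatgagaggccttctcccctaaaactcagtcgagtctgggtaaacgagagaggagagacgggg
Tspo2: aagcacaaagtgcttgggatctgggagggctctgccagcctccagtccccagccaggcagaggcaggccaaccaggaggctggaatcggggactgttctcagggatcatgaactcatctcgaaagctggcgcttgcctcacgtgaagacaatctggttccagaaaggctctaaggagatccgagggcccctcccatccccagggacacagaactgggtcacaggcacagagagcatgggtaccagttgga
Unc5cl: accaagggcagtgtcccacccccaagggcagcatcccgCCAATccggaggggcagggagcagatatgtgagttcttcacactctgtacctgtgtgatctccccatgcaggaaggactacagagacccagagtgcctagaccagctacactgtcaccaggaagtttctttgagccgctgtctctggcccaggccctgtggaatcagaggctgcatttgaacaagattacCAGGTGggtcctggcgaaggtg

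On both strands, the searched letters were TTCNNNGAA (STAT site), CCAAT (the box of that name), TGANTCA (AP-1 site), CAGGTG (an E-box bound by Snail family factors) and TATAAA (the TATA box), together with the palindromic full-length estrogen and progesterone response elements. The *Apobec2* sequence held 1 match, a CCAAT box read as ATTGG at 187 to 183 bases before the start. The *Tspo2* sequence held none of the 7. The *Unc5cl* sequence held a CCAAT box at 212 to 208 bases before the start and CAGGTG at 22 to 17 bases before it. In stretches of the same length before the neighbours, *Oard1* also had a CCAAT box, at 229 to 225 bases before its start. *Nfya* had none of the 7. Of the 21757 protein-coding promoters of the same length, 36.5% held a CCAAT box, 17.7% held CAGGTG, 11.9% a TATA box, 7.7% a STAT site, 6.18% an AP-1 site, 0.299% the progesterone and 0.0506% the estrogen response element. No motif was shared by all 3 sequences. Their GC content was 51.2%, 58.8% and 57.2%, in the order *Apobec2*, *Tspo2* and *Unc5cl*.

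Expected counts summed to between 13960748, in control 3, and 25906443 per uterus, so control 3 gave the least precise low values. Levels are given as CPM, the read count of a gene scaled to a common library size by TMM, and, for comparison between genes, as the deposited TPM, which also takes transcript length into account. Along the main axis of a multidimensional scaling of all genes, control 2 stood at 0.03, between the other controls (2.08 and 2.09) and the *Gp130* ecKO uteri (−1.47 to −1.32). The level of *Unc5cl* in controls and its fold change are therefore also given without control 2. The labels do not say that the uteri of a group are separate animals, and p-values measure the spread between these samples. For *Il6st* itself, controls ranged from 452 to 678 CPM and *Gp130* ecKO uteri from 349.8 to 388 CPM, with a log2 fold change of −0.68 (SE 0.21, adjusted p = 0.120, edgeR quasi-likelihood test).

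*Unc5cl* went from a low level in controls to a high one in *Gp130* ecKO and was the most abundant of the 3 genes in every uterus. Controls 1, 2 and 3 gave 1.94, 9.60 and 3.87 CPM, whereas *Gp130* ecKO 1, 2 and 3 gave 123, 122 and 127 CPM. The lowest *Gp130* ecKO uterus was 12.7-fold above the highest control, which was control 2, and 31.5-fold above the highest of the other controls. The *Gp130* ecKO uteri lay within 1.04-fold of each other, while the controls spanned 4.94-fold. From 355 counts in all controls together to 8951 in all *Gp130* ecKO uteri, the depth-scaled ratio was 22.9 (95% exact interval 20.6 to 25.5, for counting error only). The log2 fold change of the CPM scale was 4.58 (SE 0.55, n = 3 per group), and it was 5.48 with control 2 left out.

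*Apobec2* was close to the limit of detection in controls. It had 3, 4 and 1 counts in controls 1, 2 and 3 (0.121, 0.154 and 0.0667 CPM), and 117, 337 and 200 counts in *Gp130* ecKO 1, 2 and 3 (5.29, 13.0 and 8.29 CPM). No *Gp130* ecKO uterus came near a control, and the lowest was 34.3-fold above the highest control. Within the *Gp130* ecKO group, *Gp130* ecKO 2 was highest and the uteri spanned 2.45-fold. The ratio of the summed counts was 74.3 (95% exact interval 37.5 to 173, for counting error only), an interval made wide by the 8 control counts. The fitted log2 fold change was 6.13 (SE 0.55), which depends on those few counts.

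*Tspo2* had the lowest mean level of the 3 genes in each group. It had 0, 1 and 1 counts in controls 1, 2 and 3, and 33, 80 and 40 counts in *Gp130* ecKO 1, 2 and 3 (1.49, 3.08 and 1.66 CPM). The lowest *Gp130* ecKO uterus was 22.4-fold above the highest control, and *Gp130* ecKO 2 was again the highest. The ratio of the summed counts was 69.5 (95% exact interval 18.9 to 579). The fitted log2 fold change was 5.86 (SE 0.76). That interval, from 2 control counts in all, covers counting error only and not the spread between uteri.

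Called at an FDR under 0.05 with a change of more than 2-fold, 26 of the 16605 tested genes (0.157%) passed edgeR's quasi-likelihood test, 21 of them (0.126%) higher and 5 (0.0301%) lower in *Gp130* ecKO. *Apobec2*, *Tspo2* and *Unc5cl* are among the 21, as their choice required, and nothing is read from that. Leaving out control 2 gave 897 called genes, and leaving out any other uterus 1 to 6. The exact test called 1252 genes (622 higher, 630 lower) and DESeq2 1546 (733 higher, 813 lower). By size of the fitted fold change *Apobec2*, *Tspo2* and *Unc5cl* held ranks 7, 9 and 18 of the 16605 genes. The middle 90% of all genes ran from −1.38 to 1.29 on the log2 scale, with a median of −0.05.

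**Figure D1:**
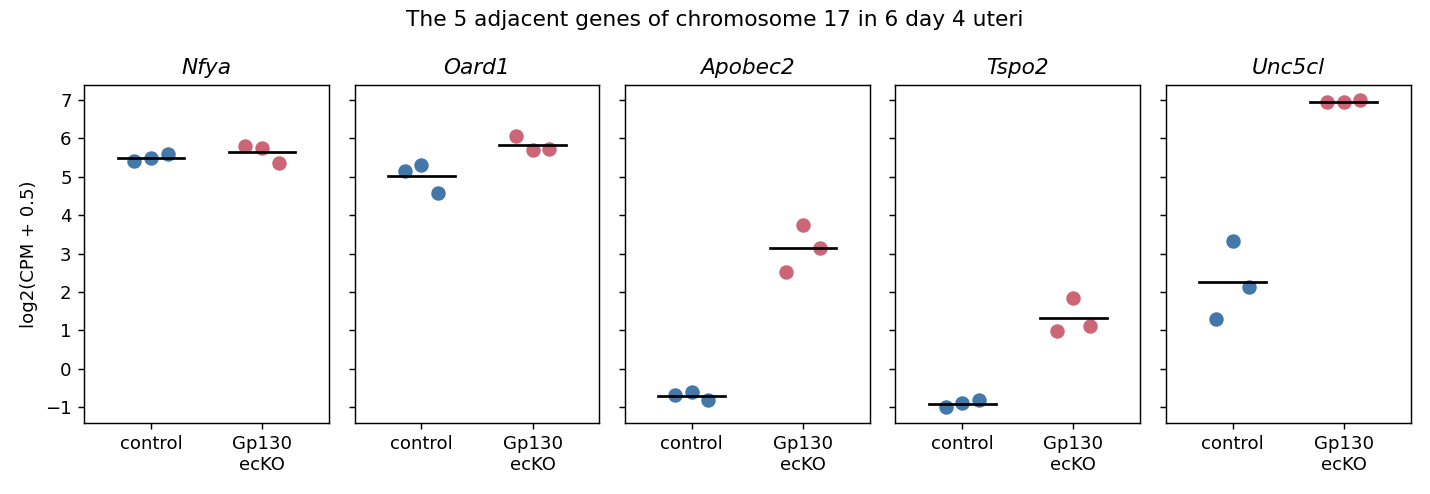
Level of each of the 5 adjacent genes, in their order along the chromosome, as log2(CPM + 0.5) in each uterus (blue, control; red, *Gp130* ecKO; horizontal line, mean of 3). *Apobec2*, *Tspo2* and *Unc5cl* lie far apart between the groups, *Oard1* lies apart by less (lowest *Gp130* ecKO uterus 1.32-fold above the highest control) and *Nfya* overlaps.

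*Nfya* did not pass the test. Controls 1, 2 and 3 gave 42.3, 44.4 and 47.8 CPM, whereas *Gp130* ecKO 1, 2 and 3 gave 55.5, 53.4 and 40.3 CPM. The uterus *Gp130* ecKO 3 was below every control, and the groups overlapped. The log2 fold change was 0.15 (SE 0.18, adjusted p = 0.623, edgeR quasi-likelihood test; exact two-sided permutation p = 0.4, where 3 against 3 uteri cannot go below 0.1). The 95% interval of the log2 fold change, −0.27 to 0.57, corresponds to between 0.829-fold and 1.48-fold, far below the ratios of the 3 genes on the other side of *Oard1*.

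*Oard1*, whose start site is 10 bp from that of *Nfya*, was higher in every *Gp130* ecKO uterus than in every control but did not pass the test after adjustment. Controls 1, 2 and 3 gave 35.0, 38.9 and 23.4 CPM, whereas *Gp130* ecKO 1, 2 and 3 gave 66.5, 51.2 and 52.4 CPM. The groups did not overlap, as was the case for 31.3% of all tested genes, 15.7% in this direction and 15.6% in the other. The log2 fold change was 0.80 (SE 0.23, 95% interval 0.26 to 1.35), or 1.75-fold. The unadjusted p was 0.00964, where 12.1% of all genes were higher with a p under 0.05, and the adjusted p was 0.112 (edgeR quasi-likelihood test; exact permutation p = 0.1). DESeq2 gave an adjusted p to 15594 genes, under 0.05 for 14.3% of them, and that of *Oard1* was 0.0319. Over all alternatives the adjusted p of *Oard1* ranged from 0.0319 to 0.308.

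Per length, the order of the 5 genes differed between the groups. In controls, mean TPM was 38.1 ± 8.1 for *Oard1*, 18.2 ± 1.2 for *Nfya*, 2.67 ± 2.20 for *Unc5cl*, 0.11 ± 0.04 for *Apobec2* and 0.0967 ± 0.1193 for *Tspo2* (SD, n = 3). In *Gp130* ecKO, mean TPM was 69.9 ± 12.4 for *Oard1*, 64.4 ± 6.4 for *Unc5cl*, 26.3 ± 7.2 for *Nfya*, 9.28 ± 4.87 for *Apobec2* and 4.18 ± 2.21 for *Tspo2*. Without control 2 the control mean of *Unc5cl* was 1.45 TPM. In *Gp130* ecKO, *Unc5cl* had moved past *Nfya*, and its range of 57.4 to 69.7 TPM overlapped that of *Oard1*, 58.0 to 82.7 TPM. *Apobec2* and *Tspo2* overlapped each other in both groups, with 0.07 to 0.15 and 0 to 0.23 TPM in controls and 5.46 to 14.8 and 2.35 to 6.63 TPM in *Gp130* ecKO. Among the genes with any TPM in a given uterus, *Unc5cl* stood above 36.4% to 55.8% of them in controls and above 89.8% to 90.6% in *Gp130* ecKO. *Apobec2* stood above 5.66% to 17.4% in controls and 55.2% to 68.6% in *Gp130* ecKO, and *Tspo2* above 0% to 17.8% and 46.3% to 57.2%.

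The reads of the 5 genes together came to 82.6 ± 9.3 CPM in controls and 241 ± 11 CPM in *Gp130* ecKO (SD, n = 3). *Unc5cl* made up 5.97% of them in controls and 51.5% in *Gp130* ecKO, on average, and 3.79% in controls without control 2. *Nfya* made up 54.8% and 20.5% of the total, while its own level overlapped between the groups, and *Oard1* 39% and 23.5%. *Apobec2* made up 3.69% and *Tspo2* 0.861% of the total in *Gp130* ecKO. Most of the added reads therefore belonged to *Unc5cl*.

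**Figure D2:**
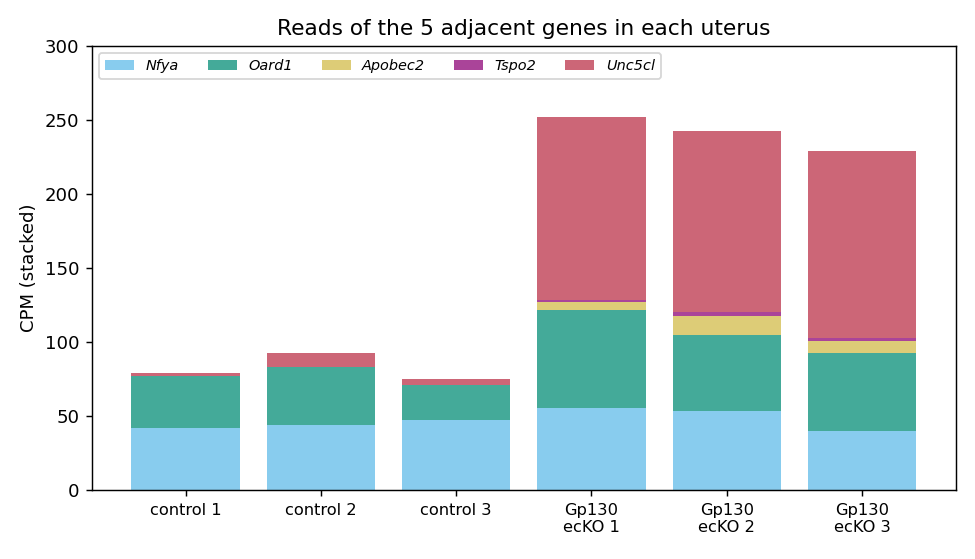
Summed CPM of the 5 adjacent genes in each uterus, as stacked bars from 0, coloured by gene. *Unc5cl* makes up 51.5% of the total in *Gp130* ecKO and 5.97% in controls, while the height of the *Nfya* part overlaps between the groups.

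Apart from their levels, the transcript models to which RSEM assigned the reads can be compared, since the deposited tables give a length weighted by the estimated isoforms. For *Nfya* this length was 3144, 3227 and 3494 bases in controls 1, 2 and 3, and 2678, 2656 and 2840 bases in *Gp130* ecKO 1, 2 and 3. The estimate was shorter in each *Gp130* ecKO uterus than in each control. The mean was 3288 ± 183 bases in controls and 2725 ± 101 in *Gp130* ecKO, a log2 ratio of −0.27 (exact permutation p = 0.1, the smallest possible). Among 7029 genes with several transcripts and a mean count of at least 500, 24.9% had groups that did not overlap in this length, 12.7% with the shorter estimate in *Gp130* ecKO, and 5.83% had a ratio at least as large in either direction. Mean TPM of *Nfya* had a log2 ratio of 0.53, against 0.15 in the count-based fit.

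For *Oard1* the length was 1178 ± 9.4 bases in controls and 1193 ± 1.6 in *Gp130* ecKO, without overlap but almost equal, and the log2 ratio of mean TPM was 0.88. The lengths of *Unc5cl* overlapped between the groups, and those of *Apobec2* and *Tspo2* rest on 0 to 4 reads per control and were not compared. These estimates come from single 75 base reads divided among transcript models, and no read that spans an exon junction was examined.

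**Figure D3:**
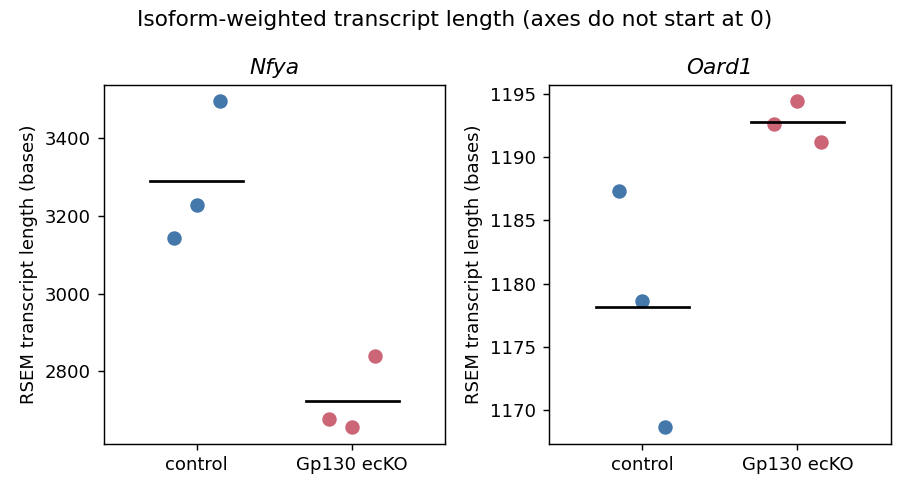
Transcript length in bases, weighted by RSEM's isoform estimates, of *Nfya* and *Oard1* in each uterus (blue, control; red, *Gp130* ecKO; horizontal line, mean of 3), on axes that do not start at 0. For *Nfya* the *Gp130* ecKO uteri are all below the controls (2725 against 3288 bases on average), and for *Oard1* the groups differ by few bases (1193 against 1178).

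Beyond the 5 genes, the next genes on the *Nfya* side belong to the Trem family, receptors of myeloid cells. The nearest, *Treml1*, had 0 to 2 counts per uterus and was not tested. Within 500 kb of the 5 genes the files list 29 genes besides *Apobec2*, *Tspo2* and *Unc5cl*, of which 12 had no count in any uterus and 6, *Nfya* and *Oard1* among them, passed the filter on low counts. None of the 6 had an adjusted p under 0.05 in edgeR's quasi-likelihood test, where 0.157% of all genes did. In its exact test 1 did (*Trem6l*), where 8.99% of all genes did. In DESeq2, which gave *Treml2* no adjusted p, 2 did (*Trem6l* and *Oard1*). There, 14.3% of the 15594 genes given an adjusted p had one under 0.05. At an unadjusted p under 0.05 there was 1 higher gene, *Oard1*, and there were 2 lower genes, *Trem6l* and *Trem2*, where 12.1% of all tested genes were higher and 12.9% lower. The 4 tested genes on the *Nfya* side had negative log2 fold changes, with a median of −0.97. The median over the 6 was −0.61, against −0.05 over all tested genes. With *Gp130* ecKO 2 left out it was −1.72, over the 7 genes that then passed the filter, and with a filter of 1 CPM in 3 uteri, which leaves 4 genes, it was −0.19.

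*Trem2*, a lipid-sensing receptor of macrophages 32738 bp from *Nfya*, was measured at 5.78, 7.64 and 12.9 CPM among controls and at 1.49, 5.73 and 3.77 CPM among *Gp130* ecKO uteri. Each *Gp130* ecKO uterus was below each control, though *Gp130* ecKO 2 by little, as was the case for 15.6% of all tested genes. The log2 fold change was −1.24 (SE 0.52, adjusted p = 0.197, edgeR quasi-likelihood test). *Trem6l* was at 0.688, 1.23 and 1.53 CPM among controls and at 0.136, 0.385 and 0.207 CPM among *Gp130* ecKO uteri, with a log2 fold change of −2.16 (SE 0.56, adjusted p = 0.0951). For *Trem6l* the exact test of edgeR gave an adjusted p of 0.0168, a test that brought 8.99% of all genes under 0.05, and DESeq2 gave 0.0356. The 9 Trem family genes of the window together gave 7.61, 10.1 and 16.9 CPM among controls and 2.26, 7.46 and 4.10 CPM among *Gp130* ecKO uteri. Of 4 general macrophage markers, *Adgre1* was at 8.41, 10.8 and 13.9 CPM among controls and at 3.98, 13.0 and 5.51 CPM among *Gp130* ecKO uteri (log2 fold change −0.55), and *Csf1r* at 17.1, 23.6 and 24.5 and at 9.49, 21.2 and 12.1 CPM (−0.60). Both were highest in *Gp130* ecKO 2 within their group, as was *Trem2*. *Cd68* and *Lyz2* had positive log2 fold changes, 0.39 each, and no marker of the 4 had an unadjusted p under 0.05. The sum of the 4, mostly *Lyz2*, was 252 to 314 CPM in controls and 169 to 506 CPM in *Gp130* ecKO, and the part of macrophages in the Trem values was not tested. By staining sections for a macrophage marker, the study counted significantly more positive cells in the stroma of *Gp130* ecKO. That is a count of cells by protein, unlike the RNA of whole uteri.

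*Foxp4*, a forkhead transcription factor and the other tested gene of the window besides *Treml2*, was at 38.9, 25.0 and 22.7 CPM among controls and at 18.4, 21.8 and 20.6 CPM among *Gp130* ecKO uteri. The fitted change on the log2 scale was −0.51 (SE 0.25, adjusted p = 0.244, edgeR quasi-likelihood test), and that of *Treml2* was −0.71 (SE 0.95, adjusted p = 0.667). On the *Unc5cl* side no gene within 500 kb passed the filter, and 4 of the 6 listed there had no count at all. The nearest tested gene on that side was *Mocs1*, a molybdenum cofactor enzyme 888512 bp away, with a log2 fold change of 0.47 (adjusted p = 0.312). The high genes thus had tested neighbours close by on one side only. Within 1 Mb, 21 other genes were tested, with 8 positive and 13 negative log2 fold changes and a median of −0.42. None had an adjusted p under 0.05 in edgeR's quasi-likelihood test. In the exact test 2 did, against 8.99% of all genes. In DESeq2 3 did, against 14.3% of the 15594 genes given an adjusted p. At an unadjusted p under 0.05, 2 of the 21 were higher and 6 lower, where 12.1% and 12.9% of all genes were.

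**Figure D4:**
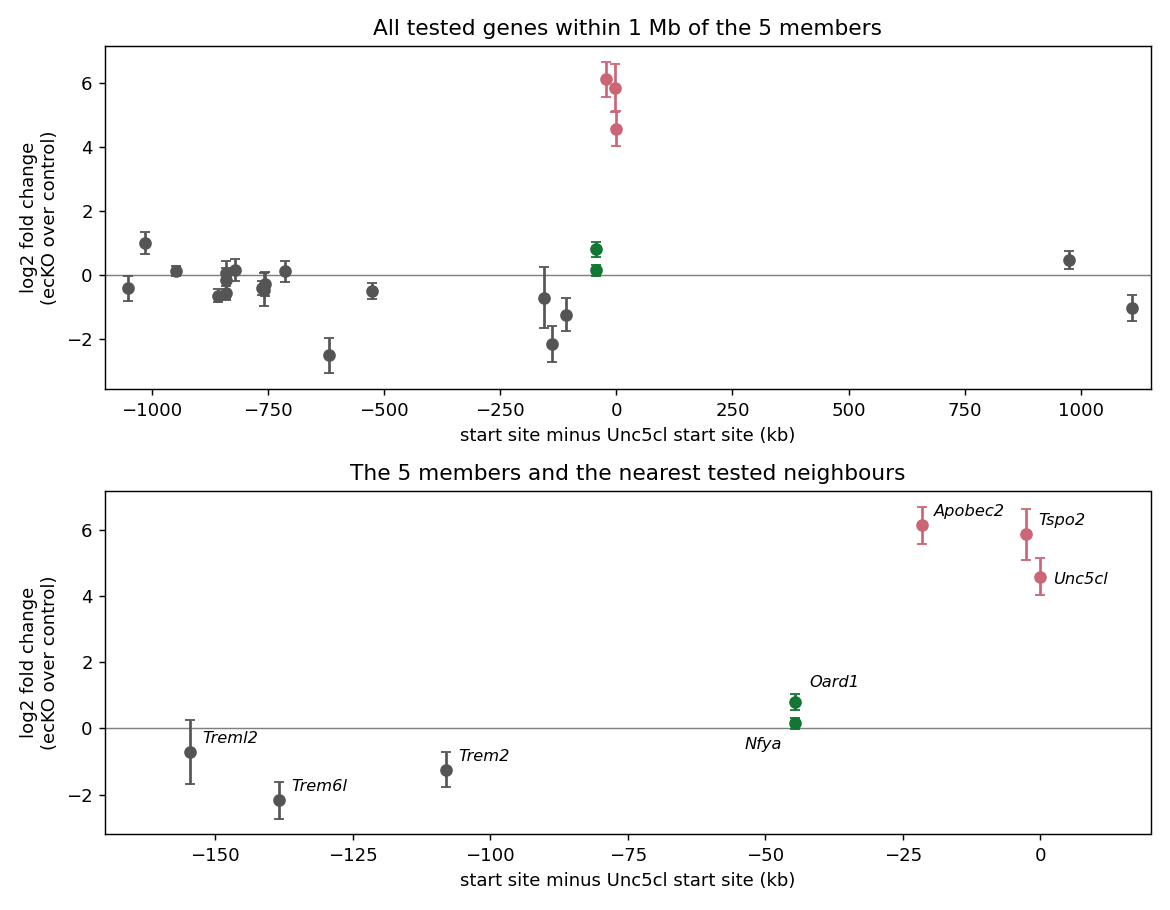
Log2 fold change (*Gp130* ecKO over control, bars ± SE) of each tested gene against the distance of its start site from that of *Unc5cl* in kb, for all tested genes within 1 Mb (top) and for the nearest ones (bottom); red marks the genes chosen for their change and green *Nfya* and *Oard1*. The red points lie between 4.58 and 6.13, and every other point lies between −2.52 and 1.00.

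Across the 6 uteri the 3 high genes followed one another, and *Apobec2* and *Tspo2* also ranked the *Gp130* ecKO uteri alike. Pearson's r of log2(CPM + 0.5) was 0.993 for *Apobec2* and *Tspo2*, 0.956 for *Apobec2* and *Unc5cl* and 0.947 for *Tspo2* and *Unc5cl*, values set mostly by the difference between the groups that chose these genes. After subtraction of each group's mean, r was 0.88 for *Apobec2* and *Tspo2*, both highest in *Gp130* ecKO 2 and lowest in *Gp130* ecKO 1, whereas in controls, at 0 to 4 counts, *Apobec2* was lowest and *Tspo2* highest in control 3. It was 0.07 and 0.08 for their pairs with *Unc5cl*, which varied little among the *Gp130* ecKO uteri. These are descriptions over 6 points that share libraries. With both genes near the floor in controls, the 0.88 rests mostly on the 3 *Gp130* ecKO uteri.

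By the same measure over the 6 uteri, the genes most like each high gene were sought among 14758 genes, the 5 themselves left out, with a mean of at least 1 CPM. They were picked by a correlation over 6 points that the difference between the groups mostly sets. Their likeness, including which uterus was highest, is part of that choice, and nothing is read from it. *Apobec2* was followed most closely by *Pptc7*, a mitochondrial phosphatase gene on chromosome 5 (r = 0.996), and *Zfp119a*, *Chst11* and *Gm2436* were also among the 5 closest. *Pptc7* ranged from 22.1 to 24.1 CPM among controls and from 35.4 to 39.8 CPM among *Gp130* ecKO uteri, so it followed the pattern of *Apobec2* at a far smaller change. *Gm2436* had 0 counts in each control and 146, 189 and 193 counts in *Gp130* ecKO 1, 2 and 3. *Tspo2* was followed most closely by *Chst11*, a chondroitin sulfotransferase gene on chromosome 10 (r = 0.993), then by *Pag1*, *Chst10*, *Ovgp1* and *Zfp119a*. *Ovgp1*, the oviduct-specific glycoprotein, was at 47.9, 85.3 and 50.6 CPM among controls and at 615, 1193 and 552 CPM among *Gp130* ecKO uteri, highest in the uterus where *Tspo2* was highest. *Unc5cl* was followed most closely by *Dclre1b*, a telomere-protecting nuclease gene on chromosome 3 (r = 0.997), then by *Zfp953*, *Gm50105*, *Zfp91* and *Efna4*. *Dclre1b* was at 15.0, 21.4 and 17.4 CPM among controls, where control 2 was highest as for *Unc5cl*, and at 36.6, 37.0 and 40.3 CPM among *Gp130* ecKO uteri. Among the genes named in this way, *Zfp119a* and *Gm50105* lie on chromosome 17.

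Among the relatives of the 3 high genes, none had an adjusted p under 0.05 in edgeR's quasi-likelihood test, its exact test or DESeq2. Of all genes, 0.157% did in the quasi-likelihood test and 8.99% in the exact test. In DESeq2, 14.3% of the 15594 genes given an adjusted p did. Of the 4 other AID/APOBEC family genes, *Apobec1* and *Apobec3* passed the filter. Neither had an unadjusted p under 0.05, which 25% of all genes had. *Apobec3*, an antiviral deaminase, was at 55.8, 83.6 and 70.0 TPM among controls and at 57.9, 68.9 and 56.8 TPM among *Gp130* ecKO uteri. In CPM it was at 82.4, 113 and 87.9 among controls and at 66.3, 80.7 and 80.5 among *Gp130* ecKO uteri. There the groups did not overlap, as for 15.6% of all tested genes in that direction (log2 fold change −0.32, adjusted p = 0.311, edgeR quasi-likelihood test). *Apobec1*, the RNA editing enzyme of apolipoprotein B mRNA, was at 5.62, 5.06 and 9.23 TPM among controls and at 1.26, 5.74 and 3.91 TPM among *Gp130* ecKO uteri. The median log2 fold change of both was −0.45. On the TPM scale *Apobec3* remained above *Apobec2* in every uterus.

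*Tspo*, the ubiquitous paralog of *Tspo2*, was at 303, 189 and 131 TPM among controls and at 237, 154 and 182 TPM among *Gp130* ecKO uteri, overlapping between the groups and far above *Tspo2* in each. The log2 fold change of *Tspo* was −0.13 (SE 0.36, adjusted p = 0.841, edgeR quasi-likelihood test). All 5 listed genes of the steroidogenic cholesterol import route (*Tspo*, *Star*, *Vdac1*, *Acbd3* and *Dbi*) were tested. None had an adjusted p under 0.05, none was higher at an unadjusted p under 0.05, and *Star*, the steroidogenic acute regulatory protein, was lower at that level (−1.11, adjusted p = 0.151), as were 12.9% of all genes. The median log2 fold change was −0.13.

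Of the UNC5 receptors, the netrin receptors *Dcc* and *Neo1* and the netrins *Ntn1* and *Ntn4*, 7 of 8 were tested. None was higher at an unadjusted p under 0.05, and *Unc5b*, which guides vessels, was lower at that level (−0.87, adjusted p = 0.173), again against 12.9% of all genes. Their median log2 fold change was 0.24. *Unc5a*, *Unc5b* and *Unc5c* stayed at or below 2.04 TPM in all uteri. Among 15 genes of the NF-kB and JNK route, into which UNC5CL feeds, all were tested and none had an adjusted p under 0.05 in edgeR's quasi-likelihood or exact test, against 1 in DESeq2 (*Ikbkg*). At an unadjusted p under 0.05, the ubiquitin ligase gene *Traf6* (log2 fold change 0.48, adjusted p = 0.144) and the kinase subunit gene *Ikbkg* (0.68, adjusted p = 0.102) were higher and none was lower, and the median was 0.02. In DESeq2, 14.3% of the 15594 genes given an adjusted p had one under 0.05. Over all tested genes, 12.1% were higher at an unadjusted p under 0.05.

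**Figure D5:**
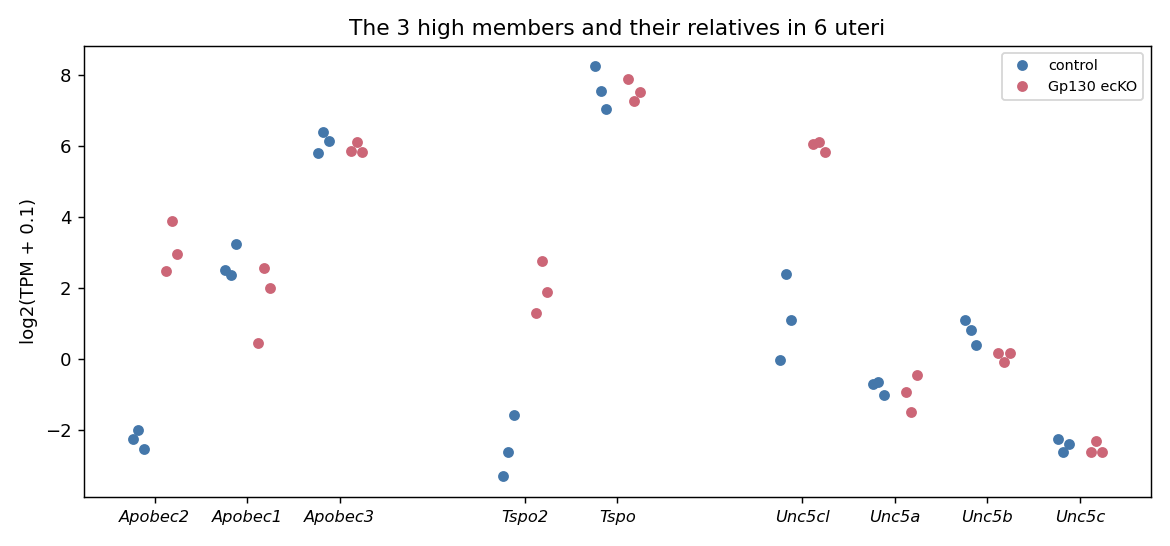
Level of the 3 high genes and their relatives as log2(TPM + 0.1) in each uterus (blue, control; red, *Gp130* ecKO). The groups lie far apart for *Apobec2*, *Tspo2* and *Unc5cl* and overlap or lie close for *Apobec1*, *Apobec3*, *Tspo*, *Unc5a*, *Unc5b* and *Unc5c*.

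The partners of *Nfya* and the relatives of *Oard1* were read in the same way. *Nfyb*, a histone-fold subunit of NF-Y, ranged from 30.6 to 33.5 CPM among controls and from 22.2 to 27.1 CPM among *Gp130* ecKO uteri. Its fitted log2 change was −0.42 (adjusted p = 0.195, edgeR quasi-likelihood test). It was lower at an unadjusted p under 0.05, as were 12.9% of all genes. *Nfyc*, the other histone-fold subunit, had 51.0 to 63.3 and 66.1 to 74.6 CPM, a log2 fold change of 0.33 (adjusted p = 0.234). Of the 7 CCAAT-box target genes listed, all of cell division or protein folding, all had negative log2 fold changes with a median of −0.97, where 7824 of all 16605 genes had positive ones. The median was −0.51 without *Gp130* ecKO 1 and −0.61 without control 1. Without *Gp130* ecKO 2, 6 of the 7 were negative. None of the 7 had an adjusted p under 0.05 in edgeR's quasi-likelihood test. *Top2a* did in its exact test, as did 8.99% of all genes. It also did in DESeq2, as did 14.3% of the 15594 genes given an adjusted p. *Top2a*, the topoisomerase of dividing cells, was at 169, 125 and 175 CPM among controls and 25.8, 57.5 and 36.9 CPM among *Gp130* ecKO uteri (−1.96, adjusted p = 0.0548). Of 7 other enzymes that remove or cut ADP-ribose, 1 was higher at an unadjusted p under 0.05, the macrodomain gene *Macrod2* (0.72, adjusted p = 0.176), against 12.1% of all genes, none was lower, and the median was 0.04.

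The bulk RNA cannot tell fewer cells of a type from less RNA per cell, so markers of the cell types in which these genes are known were set beside them. The epithelial markers *Cdh1*, *Epcam*, *Krt8*, *Krt18*, *Krt19* and *Krt7*, for the tissue that iCre targets, summed to 1806 to 2709 CPM in controls and 3948 to 5441 CPM in *Gp130* ecKO. Of the 6, 4 were higher at an unadjusted p under 0.05 (*Krt8*, *Krt19*, *Krt7* and *Cdh1*), against 12.1% of all genes. None had an adjusted p under 0.05 in edgeR's quasi-likelihood test. In its exact test 3 did, against 8.99% of all genes. In DESeq2 4 did, against 14.3% of the 15594 genes given an adjusted p. The median log2 fold change of the 6 was 0.99. *Krt19* was at 86.0, 382 and 109 CPM among controls, highest in control 2 as for *Unc5cl*, and at 1066, 744 and 829 CPM among *Gp130* ecKO uteri. *Krt8* and *Cdh1* were also highest in control 2 among controls, while *Epcam*, *Krt18* and *Krt7* were highest in control 1, and the log2 fold change of *Epcam* was −0.19 (adjusted p = 0.678, edgeR quasi-likelihood test). The mean of the summed epithelial level was 1.92-fold higher in *Gp130* ecKO. By staining, the study found more KRT8 and CDH1 in the epithelium of *Gp130* ecKO, so this sum is no measure of the amount of epithelium. Relative to that sum, *Unc5cl* was at a mean of 2.78% of the epithelial marker CPM in *Gp130* ecKO and 0.215% in controls (0.145% without control 2). The lowest *Gp130* ecKO uterus at 2.26% was above the highest control at 0.355%. *Unc5cl* was chosen for its large change, so nothing is read from that gap, and the ratio does not correct for cell content.

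For muscle, *Mb* (myoglobin) did not overlap, with 0, 3 and 1 counts in controls and 24, 7 and 10 in *Gp130* ecKO 1, 2 and 3, where 15.7% of tested genes did not overlap in that direction. It was below the filter on low counts, and was highest in *Gp130* ecKO 1, where *Apobec2* was lowest of its group. The 11 skeletal and heart muscle genes summed to 12.5 to 25.0 CPM in controls and 7.61 to 26.6 CPM in *Gp130* ecKO, with *Myh1*, *Myh2* and *Myh4* at 0 in all uteri and none of the 3 tested genes with an unadjusted p under 0.05 (1 positive log2 fold change, median −0.66). Smooth muscle markers overlapped as well, at 536 to 2592 and 450.4 to 2738 CPM.

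Red blood cell markers varied in order. The 9 of 10 listed markers found in the files summed to 179 to 338 CPM in controls and 48.0 to 324 CPM in *Gp130* ecKO, overlapping, and were mostly globin. Summed globin was 334, 174 and 311 CPM among controls and 56.6, 315 and 39.5 CPM among *Gp130* ecKO uteri. The uterus *Gp130* ecKO 2, where *Tspo2* was highest, thus had the most globin of its group, but *Gp130* ecKO 1 and 3 had less globin than every control and more *Tspo2*. *Alas2*, the heme synthesis enzyme of red blood cell precursors, was at 3.48, 4.90 and 5.001 CPM among controls and at 4.84, 8.54 and 8.21 CPM among *Gp130* ecKO uteri (log2 fold change 0.70, adjusted p = 0.244, edgeR quasi-likelihood test), in the order of *Tspo2* among the *Gp130* ecKO uteri but overlapping between the groups. The markers *Slc4a1*, *Klf1* and *Epb42* stayed at or below 0.283 CPM in all uteri. The 5 stromal markers summed to 1551 to 1573 CPM in controls and 634 to 1037 CPM in *Gp130* ecKO, 4 of them lower at an unadjusted p under 0.05, as were 12.9% of all genes. The 3 endothelial markers, each lower at that level, summed to 265 to 650 CPM in controls and 152 to 275 CPM in *Gp130* ecKO. T and NK cell markers (12.3 to 24.3 and 5.47 to 17.1 CPM) and gland markers (58.7 to 522 and 46.8 to 2120 CPM) overlapped, and B cell markers stayed at or below 0.8 CPM. The part of these cell type differences in the values of the 5 genes was not tested.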

How the data were processed

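Single-read strand-specific RNA-seq of 6 uteri was analysed. The authors trimmed reads with fastp 0.23.2, mapped them to GRCm39 with STAR 2.7.10a and estimated expected counts, TPM and FPKM per gene with RSEM 1.3.3, as the paper's methods and the submitters' processing notes state. The annotation version, the strand setting in counting and the edgeR test were not given in the sources used here. The deposited TPM and FPKM values take length and depth into account; TPM served for levels between genes and for ratios of means named as such, not for the main tests, and FPKM was not used. The gene length and effective length in the deposited tables, in bases, are RSEM's isoform-weighted estimates.

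Expected counts were rounded to whole numbers. Genes kept by filterByExpr (16605 of 56748) were scaled by TMM and compared with edgeR's quasi-likelihood test (edgeR 4.0.16, R 4.3.3, form without the legacy setting, no block), with Benjamini-Hochberg adjustment over all of them. Single levels are CPM, with log2(CPM + 0.5) for exact two-sided permutation tests and correlations. Calls needed an FDR under 0.05 and more than 2-fold. Symbols and positions came from GENCODE M39, which holds 56017 of the 56748 identifiers. The 5 genes and all lists were chosen with earlier results of these data known. Genes named are these 5, *Il6st*, tested genes within 500 kb and list members. For each high gene, the 5 genes with the highest Pearson r are added. *Mocs1*, the nearest tested gene beyond 500 kb on the *Unc5cl* side, and some untested genes are given for context. Some genes that these rules name are not reported here.

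Totals of 13960748 to 25906443 counts per uterus set the precision: a count of a few reads in a control is uncertain by its counting error. The fit was tested on simulated data. Alternatives were other tests (DESeq2 1.42.0 among them), scalings, filters, unrounded counts, a replicate block and leaving out each uterus.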

Additional observations from a re-analysis of the deposited data

How the results depend on the processing

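No direction reversed for *Apobec2*, *Tspo2*, *Unc5cl*, *Nfya* or *Oard1* under any alternative run. The number of genes called moved most: 26 (21 higher, 5 lower) became 7 with the legacy form of the quasi-likelihood test, 1252 with the exact test (622 higher, 630 lower), 1317 with the likelihood ratio test (651 higher, 666 lower), 1546 with DESeq2 (733 higher, 813 lower) and 105 with no filter on low counts. Leaving out 1 uterus at a time gave 1 to 897 calls, and the 897 came without control 2. Upper-quartile scaling moved the median of all genes to −0.11.

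No pairing by replicate number was seen. The deviations of same-numbered uteri correlated at 0.10, 0.07 and −0.20, and those of differently numbered uteri at −0.31 to 0.22. With 3 uteri per group this cannot exclude a pairing. With the replicate number as a block, 6 genes were called, and the log2 fold changes were 6.13 for *Apobec2*, 5.90 for *Tspo2*, 4.84 for *Unc5cl*, 0.14 for *Nfya* (adjusted p = 0.725) and 0.83 for *Oard1* (adjusted p = 0.133, edgeR quasi-likelihood test); no call on *Nfya* or *Oard1* changed.

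*Nfya* kept a log2 fold change of 0.07 to 0.31 and an adjusted p of 0.306 to 0.890 over 16 alternatives. *Oard1* had an adjusted p under 0.05 with DESeq2 only (0.0319), at a log2 fold change of 0.82, below the 2-fold that a call needs. Its log2 fold change ranged from 0.62 to 0.98 as uteri were left out. *Apobec2* ranged from 5.75 to 6.42. *Tspo2* was 5.43 as a log2 ratio of mean TPM and 5.28 to 6.39 as uteri were left out, and *Unc5cl* 4.201 to 5.48, highest without control 2. Within 500 kb, the exact test and the likelihood ratio test each gave 1 of the 6 other genes an FDR under 0.05. DESeq2 did so for 2 (*Trem6l* and *Oard1*). The exact test gave 8.99% of all genes such an FDR, and DESeq2 14.3% of the 15594 genes given one. With a filter of 1 CPM in 3 uteri, which leaves 4 other genes in the window, their median log2 fold change was −0.19. As uteri were left out the median of the window was −1.72 to −0.44, lowest without *Gp130* ecKO 2. At both ends 7 genes passed the filter. Chosen after seeing the RSEM lengths, the log2 ratio of mean TPM without *Gp130* ecKO 1 was 0.43 for *Nfya* and 0.74 for *Oard1*. Also chosen after seeing the data, the median of the CCAAT-box target genes was −1.43 to −0.51 as uteri were left out. The cause of these shifts was not tested. Depth limits *Apobec2* and *Tspo2*, whose controls held 8 and 2 counts in all.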
